A study of Mus musculus with 6 samples.

Results

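The glycolysis and glycogen metabolism genes are 39 listed genes whose products take glucose into the muscle fiber, break it down to pyruvate and lactate, and store or release it as glycogen. They were found by their gene symbols in the transcript abundance tables and joined by gene identifier to the raw counts. All 39 were present among the 45777 genes of the count table, and all 39 were among the 16188 genes that passed the filter on low counts and were tested. The RNA came from tibialis anterior (TA), a hindlimb muscle, of male C57BL/6J mice that the labels put at 24 months of age. The Vehicle group had 3 libraries from mice given vehicle alone for 1 month. The BML-260 group had 3 libraries from mice given 5 mg/kg of BML-260, a compound reported to target the phosphatase DUSP22, for 1 month. No transgene or deletion was named for either group. The study's methods count 3 mice per group, so each p-value measures the spread between animals. The study asked what targeting DUSP22 with BML-260 does in the wasting muscle of old mice, and it does not exclude off-target effects. The comparison here covers the steps of glucose and glycogen handling in treated and control muscle.

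The TA muscle of the mouse is made mostly of fast fibers, which draw on glycogen and glycolysis to make ATP during short, strong contractions. In such fibers glycogen phosphorylase, switched on by phosphorylase kinase, releases glucose units from glycogen, and the glycolytic enzymes turn them into pyruvate, much of which leaves the fiber as lactate. Slow fibers hold less of these enzymes and rely more on mitochondria. Many steps have a muscle isozyme (Pfkm, Pgam2, Eno3) and a more widely expressed one (Pfkl, Pfkp, Pgam1, Eno1), so the balance of isozymes also reflects which cells the RNA came from.

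Promoter windows of the 250 bases before annotated transcription starts (RefSeq, GRCm38.p6, the same build as mm10) were matched to 37 of the 39 genes, which gave 53 windows. Gpd1 and Slc2a4 were not matched. The windows were searched on both strands for 4 sets of letters, which may overlap each other: the E-box CANNTG bound by myogenic factors, the hypoxia response core ACGTG, the MEF2 core (CTA, any 4 bases and TAG), and the TATA box TATAAA. The core ACGTG was in 20 of the 53 windows (37.7%), from 17 genes, and in 16.6% of all 32851 windows. CANNTG was in 69.8% of the genes' windows and 66.2% of all windows. The MEF2 core was in 3 windows (Ldhb, Phka1 and Ppp1r3a), or 5.66% against 3.20% of all, and TATAAA was in 2 windows (Pfkfb1 and Ppp1r3a), or 3.77% against 12.4%. These shares describe letters and carry no test. The MEF2 letters allow any bases in the middle and leave out sites that end in TAA, so their share does not count MEF2 sites. Several genes, such as Aldoa, Pfkm and Pfkfb1, gave more than 1 window each, so shares of windows are not shares of genes. The windows of Slc2a1, Pgam2 and Pygm are printed because Slc2a1 was the only member called between the groups, and Pgam2 and Pygm stand for the muscle enzymes of glycolysis and of glycogen breakdown. Capitals mark every match to any of the 4 sets.
Slc2a1 (chr4:119108495-119108744, plus strand): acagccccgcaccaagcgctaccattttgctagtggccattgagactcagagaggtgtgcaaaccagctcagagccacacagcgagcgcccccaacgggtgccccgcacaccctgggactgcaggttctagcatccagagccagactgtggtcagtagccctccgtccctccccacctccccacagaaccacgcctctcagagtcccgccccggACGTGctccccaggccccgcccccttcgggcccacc
Pgam2 (chr11:5803797-5804046, minus strand): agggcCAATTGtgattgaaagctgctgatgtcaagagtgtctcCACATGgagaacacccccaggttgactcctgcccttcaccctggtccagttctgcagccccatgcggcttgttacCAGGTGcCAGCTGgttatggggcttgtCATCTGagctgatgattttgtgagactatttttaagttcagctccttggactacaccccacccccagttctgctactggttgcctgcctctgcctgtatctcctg
Pygm (chr19:6384158-6384407, plus strand): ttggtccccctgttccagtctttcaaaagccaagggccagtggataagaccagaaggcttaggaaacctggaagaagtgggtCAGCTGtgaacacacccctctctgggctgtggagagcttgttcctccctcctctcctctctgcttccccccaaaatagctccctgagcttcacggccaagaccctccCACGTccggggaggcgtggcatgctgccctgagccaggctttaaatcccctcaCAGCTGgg
The Slc2a1 window held a single match, the hypoxia core that begins 36 bases before the start, and no E-box. The Pgam2 window held 5 E-boxes and no match to the other letters searched. Its letters ctatttttaa end in TAA, a form of MEF2 site that the search left out. The Pygm window held E-boxes that begin 168 and 8 bases before the start and the hypoxia core, read on the other strand, at 61 bases.

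Sequencing depth was 39793301 to 52165766 counts per Vehicle library and 39522890 to 56998875 per BML-260 library. Vehicle 3 stood apart from the other libraries over all genes. Its TMM factor, by which edgeR corrects for RNA composition, was 1.20 against 0.914 to 1.02 in the other 5 libraries, and it was the lowest or the highest library for 31.7% and 31.8% of all tested genes. It also held the highest summed level of markers of slow fibers, macrophages, neutrophils, erythroid cells, adipocytes and Schwann cells. The same held for the summed level of markers of fibroblasts, endothelium, and myogenic progenitors and regeneration, though their normalized counts were not uniformly higher there. Log2 fold changes of the members are therefore given with and without Vehicle 3. Levels of different genes are compared in TPM, a share of the transcripts in a library that is scaled to gene length, and tests between groups used counts. Normalized counts are counts divided by a size factor for each library. The 2 scales did not place Vehicle 3 alike: relative to Vehicle 1, the median gene had 1.39 times as much TPM per normalized count in Vehicle 3 and 0.910 to 1.03 times in the other libraries.

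The members spanned a wide range of levels. Aldoa, which encodes the muscle aldolase that splits the sugar into trioses, had the highest mean TPM of the list (13560.1) and ranked 14 among all genes. It alone supplied 38.0 to 47.2% of the members' TPM in a library. Eno3 (muscle enolase, mean TPM 4417), Gapdh (glyceraldehyde phosphate dehydrogenase, 1898), Pygm (muscle glycogen phosphorylase, 1843) and Pkm (pyruvate kinase, 1649) came next. These 5 genes together supplied 67.0 to 70.9% of the members' TPM. Pfkm, Ldha, Tpi1 and Pgam2 followed at mean TPM of 1412 to 1622. At the other end, Pgam1 (7.75), Slc2a1 (5.01), Pfkl (3.07), Hk1 (3.00) and Pfkp (2.36), all isoforms known from tissues other than fast muscle, had mean TPM under 10. The other members lay between 27.8 (Pfkfb4) and 589 (Ugp2) mean TPM. Several enzymes of this list, such as Gapdh, Aldoa, Pgk1, Eno1, Ldha, Pgam1 and Tpi1, have processed pseudogenes, and how reads shared with such copies were counted is not given in the sources used here, so their levels are uncertain to that extent.

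**Figure D1:**
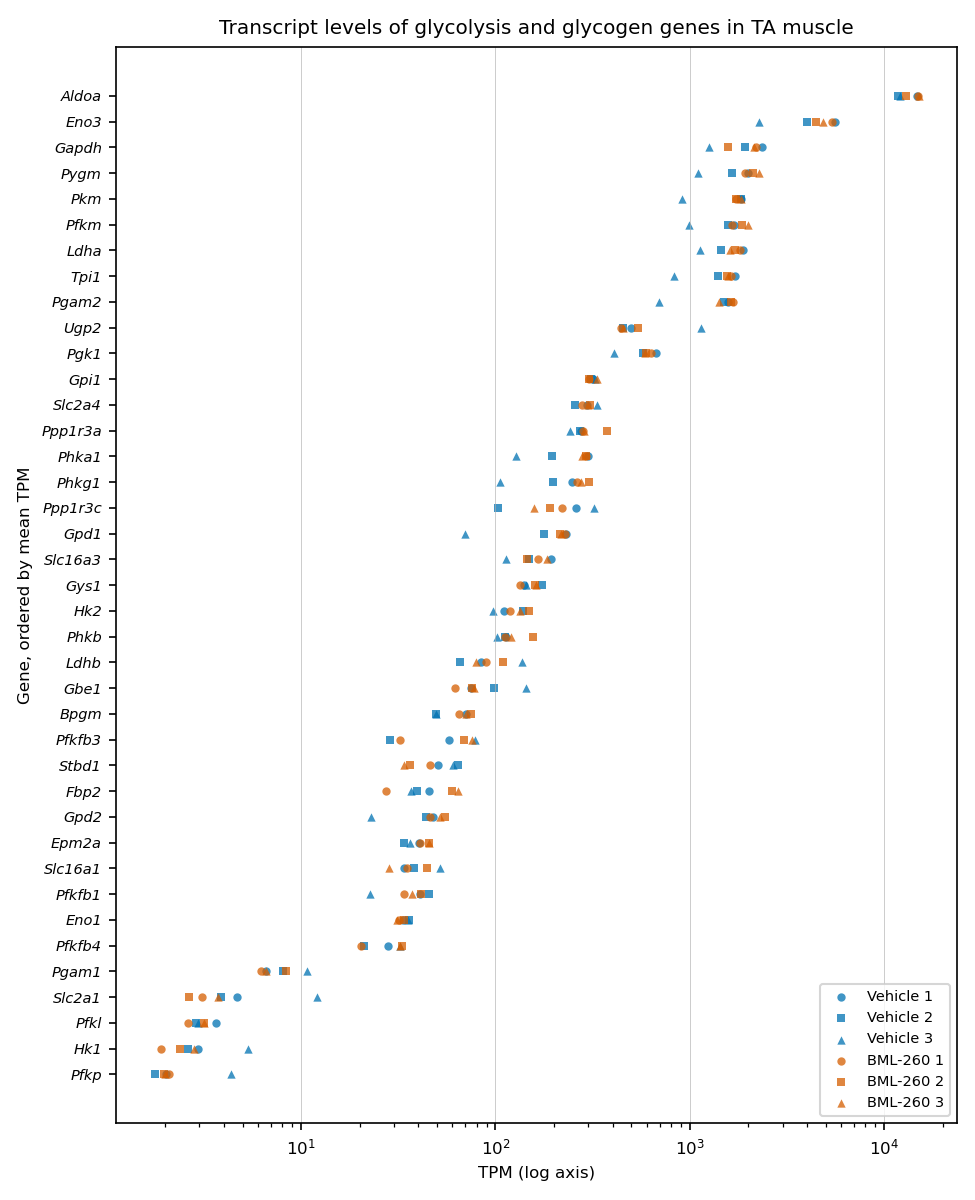
TPM of each of the 39 genes (rows, ordered by mean TPM) in each of the 6 libraries on a log axis, with Vehicle in blue, BML-260 in orange and a marker shape for each replicate number. Levels ran from about 2.36 for Pfkp to 13560.1 for Aldoa, and for many abundant enzymes the lowest point was Vehicle 3.

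Summed over the 39 genes, TPM was 37619.9, 30851 and 25469 in the Vehicle libraries and 36788, 33929 and 36857 in the BML-260 libraries. Vehicle 1 was the highest of the 6 and Vehicle 3 the lowest, so the groups overlapped. The mean was 31313 ± 6088 TPM (SD, n = 3) in Vehicle and 35858 ± 1671 TPM (SD, n = 3) in BML-260 muscle, a ratio of 1.15 that became 1.05 without Vehicle 3. In bulk tissue, fewer cells of a type and less RNA per cell cannot be told apart.

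Between the groups, 30 of the 39 genes had a higher mean and 9 a lower mean with BML-260, and the median log2 fold change of BML-260 over Vehicle was 0.23, against -0.0039 over all tested genes. Without Vehicle 3 the median was 0.022 and the split was 23 higher and 16 lower. By a threshold of an unadjusted p under 0.05 and a fold of at least 1.3, edgeR called 0 members higher, where 0.896% of all tested genes were called higher, and 1 member lower (Slc2a1), where 4.86% of all tested genes were called lower. That member was also the only 1 of the 39 with an unadjusted p under 0.05, against 966 of all tested genes. With 1 library left out, the share called also moved over all tested genes. Without Vehicle 1, 6 members were called (Slc2a1, Bpgm, Phka1, Phkg1, Gbe1 and Epm2a), or 15.4% of the 39, beside 13.3% of all genes. The members called numbered 2 without Vehicle 2 (Slc2a1 and Hk2), beside 7.22% of all genes, and 2 without Vehicle 3 (Slc2a1 and Stbd1), beside 3.98%. They numbered 3 without BML-260 1 (Slc2a1, Fbp2 and Stbd1), beside 4.19%, 0 without BML-260 2, beside 3.00%, and 1 without BML-260 3 (Slc2a1), beside 3.91%. After Benjamini-Hochberg adjustment over the 16188 genes, edgeR left 0 members and 0% of all genes under 0.05, and DESeq2 left 0 members and 0.587% of all genes. Adjusted p-values of the 39 genes lay between 0.780 and 0.994 by edgeR. In normalized counts the groups did not overlap for 6 members that were higher with BML-260 (Slc2a4, Pfkm, Pygm, Phkg1, Gpd2 and Epm2a), beside 5.41% of all tested genes, and for 1 that was lower (Slc2a1), beside 6.75%. In TPM the groups of Phkg1, Epm2a and Ppp1r3a did not overlap on the higher side, beside 2.07% of the 15627 tested genes with a TPM, nor those of Slc2a1 and Stbd1 on the lower side, beside 7.53%.

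**Figure D2:**
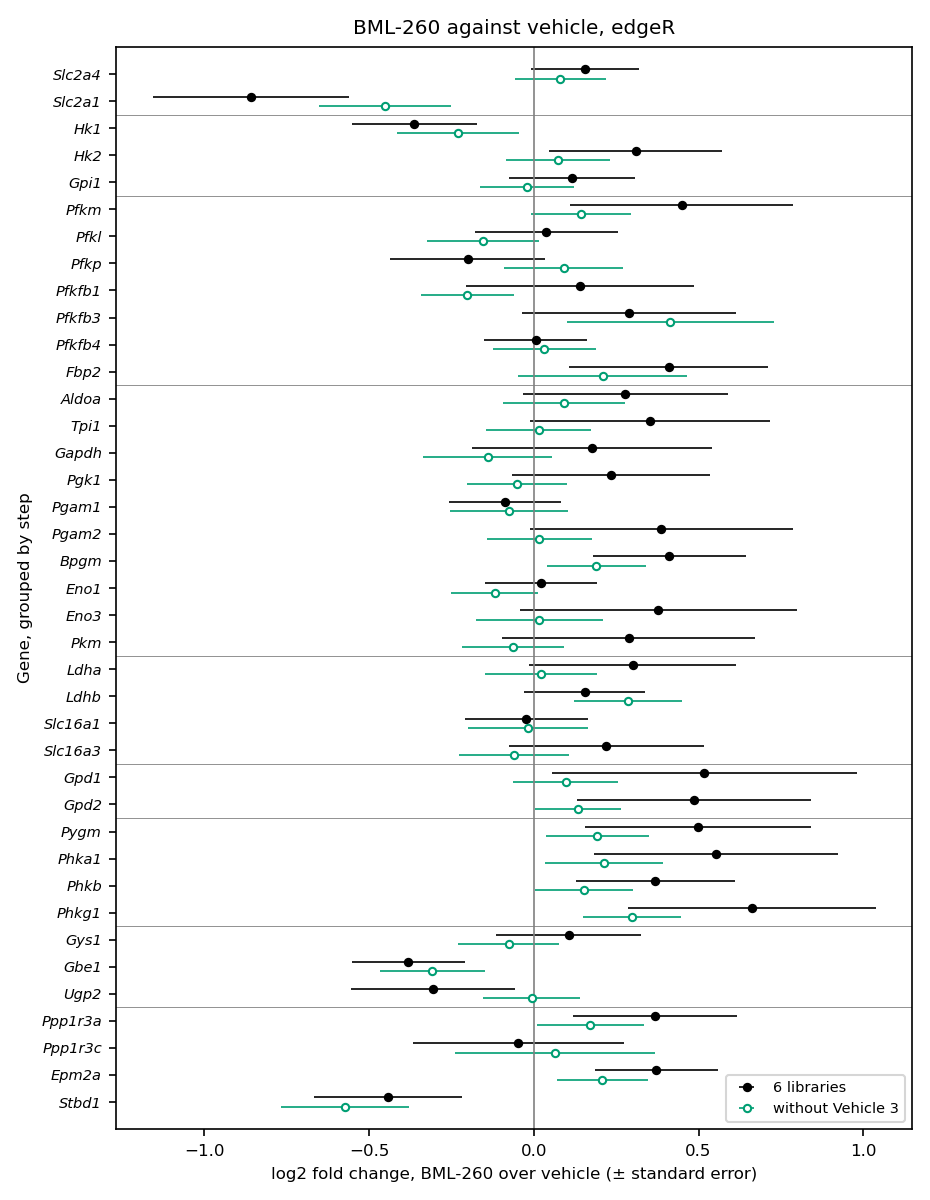
The log2 fold change of BML-260 over Vehicle with its standard error for each gene (rows, in blocks by step), from all 6 libraries (black) and without Vehicle 3 (open green). Most black points lay to the right of 0, with a median of 0.23, while the green points centred near 0, with a median of 0.022.

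Both glucose carriers of the list were measured. Slc2a1 encodes GLUT1, the carrier for basal uptake that many cell types share, and lies at chr4:119108745-119137330 on mm10. It had 341, 298 and 632 normalized counts in the Vehicle libraries and 247, 189 and 268 in the BML-260 libraries. Every BML-260 library was below every Vehicle library, and Vehicle 3 was far above the other Vehicle libraries. Its log2 fold change was -0.86 (SE 0.30), with an adjusted p of 0.780 by edgeR. Without Vehicle 3 it was -0.45 (SE 0.20). The unadjusted p was under the threshold in both fits, but not without BML-260 2 (-0.72). Slc2a1 was a minor transcript of the muscle, at 2.66 to 12.0 TPM. Slc2a4 encodes GLUT4, the carrier that insulin and contraction bring to the fiber surface, and was present at 258 to 334 TPM. It had 22471, 20774 and 18415 normalized counts in the Vehicle libraries and 23393, 22860.4 and 22537 in the BML-260 libraries. The BML-260 libraries sat just above Vehicle 1, with a log2 fold change of 0.15 (SE 0.16), or 0.081 without Vehicle 3. With counts scaled by edgeR's factors, or in TPM, the groups of Slc2a4 overlapped.

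The hexokinases trap glucose in the fiber, and Gpi1 converts the product to fructose phosphate. Hk2, the main hexokinase of insulin-responsive muscle, had 17125, 22665 and 10813 normalized counts in the Vehicle libraries and 20203, 22288 and 20387 in the BML-260 libraries. Vehicle 3 was lowest and Vehicle 2 highest, so the groups overlapped, with a log2 fold change of 0.31 (SE 0.26), or 0.073 without Vehicle 3. It passed the threshold without Vehicle 2, at 0.58. Hk1, the isozyme of most other tissues, had 347, 309 and 425 normalized counts in the Vehicle libraries and 247, 271 and 325 in the BML-260 libraries. Its highest value was in Vehicle 3, its log2 fold change was -0.36 (SE 0.19), or -0.23 without Vehicle 3, and the groups overlapped. Gpi1 was near level in TPM (302 to 334). In normalized counts it was lowest in Vehicle 3, at 19111 against 24061 to 27065 in the other libraries. Its log2 fold change was 0.12, or -0.021 without Vehicle 3.

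Phosphofructokinase commits the sugar to glycolysis. Pfkm, the muscle subunit, had 135216, 132724 and 56903 normalized counts in the Vehicle libraries and 144052, 144764 and 156108 in the BML-260 libraries. Vehicle 3 was less than any other library by a wide margin, yet the BML-260 libraries also lay above Vehicle 1 and Vehicle 2. The log2 fold change was 0.45 (SE 0.34), or 0.14 without Vehicle 3. In TPM the groups of Pfkm overlapped, with 1638 in BML-260 1 and 1690 in Vehicle 1. Pfkl, the liver subunit, had 385, 322 and 224 normalized counts in the Vehicle libraries and 304, 327 and 327 in the BML-260 libraries, and its groups overlapped with a log2 fold change of 0.038 (SE 0.22), or -0.15 without Vehicle 3. Pfkp, the platelet subunit, had 264, 238 and 419 normalized counts in the Vehicle libraries and 291, 251 and 260.2 in the BML-260 libraries. It was highest in Vehicle 3, with a log2 fold change of -0.20 (SE 0.23), or 0.091 without Vehicle 3. The 3 bifunctional enzymes that set the level of the activator of phosphofructokinase each had a log2 fold change smaller than its standard error: 0.14 for Pfkfb1, 0.29 for Pfkfb3 and 0.0054 for Pfkfb4. Without Vehicle 3 the values were -0.20, 0.41 and 0.031 in the same order. Pfkfb3 varied inside both groups, from 28.6 to 78.1 TPM in Vehicle and from 32.4 to 75.4 TPM in BML-260 muscle. Fbp2, the muscle fructose bisphosphatase that runs the reverse step, also varied inside the BML-260 group, from 27.4 to 64.5 TPM, with a log2 fold change of 0.41, or 0.21 without Vehicle 3. It passed the threshold without BML-260 1, at 0.68.

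From aldolase to pyruvate kinase, 9 of the 10 genes had a higher mean with BML-260 and none was called, with a median log2 fold change of 0.28 that became -0.018 without Vehicle 3. Aldoa had 596492, 502462 and 350091 normalized counts in the Vehicle libraries and 661279.7, 504301 and 595489 in the BML-260 libraries. Vehicle 3 was lowest, BML-260 2 was level with Vehicle 2, and the log2 fold change was 0.28 (SE 0.31), or 0.091 without Vehicle 3. Gapdh, which makes the first high-energy phosphate of the lower pathway, had 95904, 83881 and 36523 normalized counts in the Vehicle libraries and 97652, 63043 and 84775 in the BML-260 libraries. Vehicle 3 was lowest again but BML-260 2 came next, and the log2 fold change of 0.18 (SE 0.36) turned to -0.14 without Vehicle 3. Pgam2, the muscle phosphoglycerate mutase whose promoter is printed above, had 40264, 40422 and 12833 normalized counts in the Vehicle libraries and 46742, 40509.7 and 35517 in the BML-260 libraries. Apart from Vehicle 3 the libraries were close, and the log2 fold change was 0.39 (SE 0.40), or 0.017 without Vehicle 3. Eno3 had 242812, 185802 and 71574 normalized counts in the Vehicle libraries and 256653, 188536 and 207108 in the BML-260 libraries. Vehicle 1 stood among the BML-260 libraries, and the log2 fold change was 0.38 (SE 0.42), or 0.016 without Vehicle 3. Pkm had 126337, 131425 and 45049.6 normalized counts in the Vehicle libraries and 131329, 112362 and 127167 in the BML-260 libraries. Vehicle 2 was the highest library, and the log2 fold change of 0.29 (SE 0.38) turned to -0.063 without Vehicle 3. The widely expressed forms were nearer level. Pgam1 had 341, 441 and 399 normalized counts in the Vehicle libraries and 354, 422 and 336 in the BML-260 libraries, with a log2 fold change of -0.087 (SE 0.17), or -0.075 without Vehicle 3. Eno1 had 1673, 1908 and 1289 normalized counts in the Vehicle libraries and 1762, 1657 and 1538 in the BML-260 libraries, with a log2 fold change of 0.022 (SE 0.17), or -0.12 without Vehicle 3. The groups of both overlapped. Tpi1 (triose phosphate isomerase), Pgk1 (phosphoglycerate kinase) and Bpgm (bisphosphoglycerate mutase) were lowest in Vehicle 3 as well, with log2 fold changes of 0.35, 0.23 and 0.41. Without Vehicle 3 these were 0.015, -0.051 and 0.19 in the same order, so that of Pgk1 turned. Bpgm passed the threshold without Vehicle 1, at 0.68.

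Lactate dehydrogenase and the monocarboxylate transporters handle the end product. Ldha, the form that favours lactate production, had 86189, 70325 and 37113 normalized counts in the Vehicle libraries and 90926, 76037 and 72164 in the BML-260 libraries. Vehicle 3 was lowest and Vehicle 1 lay within the BML-260 range, and the log2 fold change was 0.30 (SE 0.31), or 0.022 without Vehicle 3. Ldhb, the form of oxidative tissue, had 3084, 2554 and 3642 normalized counts in the Vehicle libraries and 3611, 3892 and 2845 in the BML-260 libraries. The groups overlapped, with a log2 fold change of 0.15 (SE 0.18), or 0.29 without Vehicle 3. Slc16a3, which encodes the lactate exporter MCT4, had a log2 fold change of 0.22 that turned to -0.06 without Vehicle 3. Slc16a1, which encodes MCT1, had -0.023, or -0.018 without Vehicle 3.

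The glycerol phosphate shuttle passes electrons from glycolysis to mitochondria, and both of its enzymes were measured. Gpd1, the cytosolic dehydrogenase (chr15:99717587-99725014), had 18230.0, 14858 and 3954 normalized counts in the Vehicle libraries and 19864, 16512 and 16856 in the BML-260 libraries. Vehicle 3 was far below every other library, and the remaining 5 overlapped. The log2 fold change was 0.52 (SE 0.46), or 0.097 without Vehicle 3. Gpd2, the mitochondrial enzyme, had 7539.5, 7400.2 and 2605 normalized counts in the Vehicle libraries and 8014, 8542 and 8099 in the BML-260 libraries. All BML-260 libraries were above all Vehicle libraries, narrowly so for Vehicle 1 and Vehicle 2. The log2 fold change was 0.49 (SE 0.35), or 0.13 without Vehicle 3. In TPM the groups of Gpd2 overlapped, with 45.9 in BML-260 1 and 47.5 in Vehicle 1.

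The 4 genes of glycogen breakdown all had a higher mean with BML-260, and none was called. Their median log2 fold change was 0.53, the highest of the 9 steps, and 0.20 without Vehicle 3. Pygm had 160995, 141263 and 64324 normalized counts in the Vehicle libraries and 172086, 167014 and 180612 in the BML-260 libraries. The BML-260 libraries all lay above Vehicle 1, and the log2 fold change was 0.50 (SE 0.34), or 0.19 without Vehicle 3. In TPM the groups of Pygm overlapped, with 1932 in BML-260 1 and 1987 in Vehicle 1. Phkg1, the catalytic subunit of phosphorylase kinase in muscle, lies at chr5:129863431-129879134. It had 17315, 14357 and 5267 normalized counts in the Vehicle libraries and 19759.9, 20181 and 18693 in the BML-260 libraries. Its groups did not overlap in normalized counts or in TPM, and its log2 fold change was 0.66 (SE 0.38). It passed the threshold without Vehicle 1, at 0.99. Without Vehicle 3 the value was 0.30 (SE 0.15). Phka1, the regulatory alpha subunit of muscle, had 51114, 36074 and 16206 normalized counts in the Vehicle libraries and 55387, 49059 and 47739 in the BML-260 libraries. Vehicle 1 fell inside the BML-260 range, so the groups overlapped, with a log2 fold change of 0.55 (SE 0.37), or 0.21 without Vehicle 3. It passed the threshold without Vehicle 1, at 0.96. Phkb, the beta subunit, had a log2 fold change of 0.37, or 0.15 without Vehicle 3, and its groups overlapped.

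Genes of glycogen synthesis were less uniform. Ugp2, which makes the UDP-glucose that glycogen synthase uses, was present at 1142 TPM in Vehicle 3 and at 442 to 542 TPM in the other 5 libraries. In normalized counts it had 65623 in Vehicle 3 and 35499 to 41938 in the others. Its log2 fold change was -0.31, and -0.0066 without Vehicle 3. Gbe1, the branching enzyme, had 6312, 8783 and 8712 normalized counts in the Vehicle libraries and 5734, 6189 and 6395 in the BML-260 libraries. Vehicle 1 fell within the BML-260 range, and the log2 fold change of -0.38 (SE 0.17) was -0.31 without Vehicle 3. Gys1, muscle glycogen synthase, had a log2 fold change of 0.11 that turned to -0.076 without Vehicle 3. Of the genes that target or watch over glycogen, Ppp1r3a and Ppp1r3c bring protein phosphatase 1 to the particle, Epm2a encodes the glycogen phosphatase laforin, and Stbd1 ties glycogen to membranes. Epm2a had 4539.9, 3903 and 2870.5 normalized counts in the Vehicle libraries and 4975, 5071 and 4634 in the BML-260 libraries. Its groups did not overlap, and its log2 fold change was 0.37 (SE 0.19), or 0.21 without Vehicle 3, and it passed the threshold without Vehicle 1, at 0.53. Stbd1 had 2822, 3820.1 and 2447 normalized counts in the Vehicle libraries and 2840.5, 1993 and 1871 in the BML-260 libraries. Vehicle 1 and Vehicle 3 lay below BML-260 1, so its groups overlapped, and its log2 fold change was -0.44 (SE 0.22). Without Vehicle 3 it was -0.57 (SE 0.19), with an unadjusted p under the threshold and an adjusted p of 0.716 by edgeR. On log2 TPM with either pseudocount, Stbd1 and not Slc2a1 was the 1 member called. Ppp1r3a had a log2 fold change of 0.37, or 0.17 without Vehicle 3, and Ppp1r3c had -0.046, or 0.065. Stbd1 and Gbe1 are given library by library because they had the lowest values after Slc2a1, and Ugp2 for its level in Vehicle 3, all chosen after their values were seen.

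The less abundant isozyme of each pair was compared as its share of the summed TPM, which does not depend on the scale of a library. Of the hexokinase TPM, Hk1 was 2.60%, 1.85% and 5.21% in the Vehicle libraries and 1.58%, 1.57% and 2.06% in the BML-260 libraries. Its mean share was 3.22% ± 1.76 (SD, n = 3) in Vehicle and 1.74% ± 0.279 (SD, n = 3) in BML-260 muscle, with an exact permutation p of 0.2. The share was highest in Vehicle 3. Of the TPM of the 3 phosphofructokinase genes, Pfkl and Pfkp together were 0.333%, 0.296% and 0.733% in the Vehicle libraries and 0.287%, 0.277% and 0.258% in the BML-260 libraries. The groups did not overlap, at means of 0.454% ± 0.242 (SD, n = 3) in Vehicle and 0.274% ± 0.0146 (SD, n = 3) in BML-260 muscle, and the exact permutation p was 0.1, the smallest that 3 against 3 libraries allow. Of the mutase TPM, Pgam1 was 0.416%, 0.535% and 1.51% in the Vehicle libraries and 0.373%, 0.512% and 0.465% in the BML-260 libraries, with an exact permutation p of 0.4. Of the enolase TPM, Eno1 was 0.593%, 0.886% and 1.54% in the Vehicle libraries and 0.591%, 0.756% and 0.638% in the BML-260 libraries, with an exact permutation p of 0.3. Of the lactate dehydrogenase TPM, Ldhb was 4.27%, 4.34% and 10.9% in the Vehicle libraries and 4.73%, 5.99% and 4.70% in the BML-260 libraries, with an exact permutation p of 1. The tests were 2-sided, and after Benjamini-Hochberg adjustment over the 5 shares the p was 0.5 for the first 4 and 1 for Ldhb, so no difference in share passed the test, which this number of libraries cannot bring under 0.05. In all 5 the widely expressed or oxidative form had its highest share in Vehicle 3. With Vehicle 3 left out, the mean difference of BML-260 minus Vehicle was -0.486 percentage points for Hk1, -0.0406 for Pfkl and Pfkp, -0.0256 for Pgam1, -0.0783 for Eno1 and 0.836 for Ldhb.

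**Figure D3:**
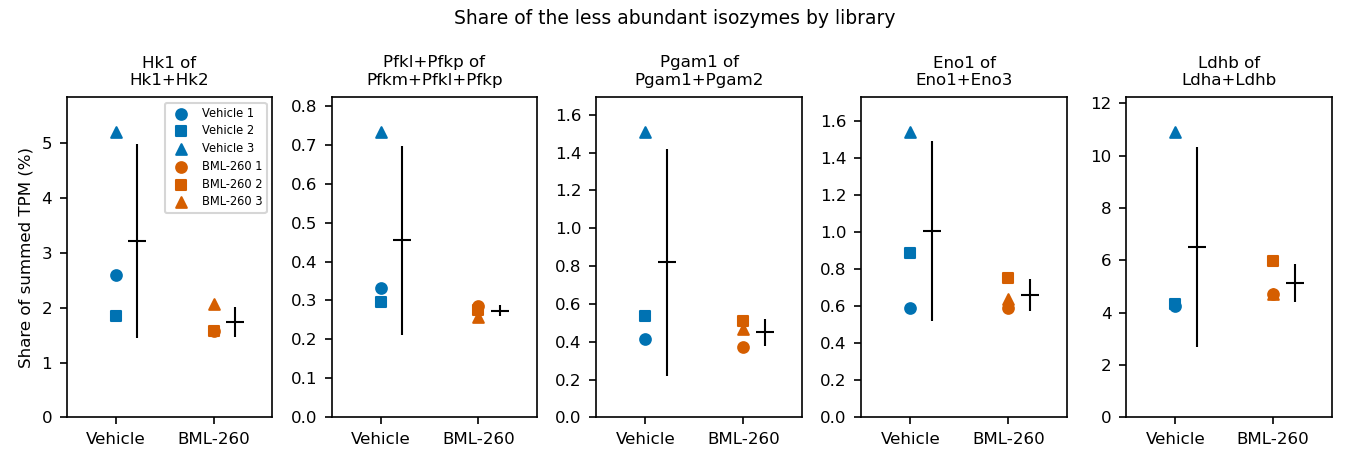
Share of the less abundant isozyme in the summed TPM of its pair or trio (percent, axis from 0) in each library, with the mean ± SD of each group as a bar beside the points. In each of the 5 panels the highest point is Vehicle 3, from 0.733% for Pfkl and Pfkp to 10.9% for Ldhb.

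Vehicle 3 was the lowest of the 6 libraries in normalized counts for 27 of the 39 genes (69.2%) and the highest for 4 (10.3%). Against the mean of Vehicle 1 and Vehicle 2, it was lower for 28 members (71.8%, beside 50.3% of all tested genes) and lower by more than 1 on the log2 scale for 15 (38.5%, beside 8.51%). The largest such differences were -2.07 for Gpd1, -1.65 for Pgam2, -1.59 for Phkg1 and -1.58 for Eno3. Pgam2, Phkg1 and Eno3 are muscle forms of their enzymes. The exceptions in the other direction were Slc2a1 (0.99), Ugp2 (0.76) and Pfkp (0.74), the 3 members that were more than 0.5 higher. By step, the median was -1.79 for the glycerol phosphate shuttle, -1.33 for glycogen breakdown and -1.21 for aldolase to pyruvate kinase, but 0.21 for glycogen synthesis. These values are on normalized counts, and TPM placed Vehicle 3 otherwise for some members. In TPM it was above Vehicle 2 for Aldoa (12023 against 11807) and highest for Slc2a4 (334), Gbe1 (143) and Ldhb (138). For Eno3 (2268), Pygm (1102) and Gpd1 (69.4) it was still the lowest library in TPM. The spread was wider in the Vehicle group. The median SD of log2 normalized counts over the 39 genes was 0.496 in Vehicle and 0.144 in BML-260 muscle, beside 0.316 and 0.190 over all tested genes. The Vehicle SD was the larger for 35 of the 39 genes (89.7%, beside 70.3%).

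**Figure D4:**
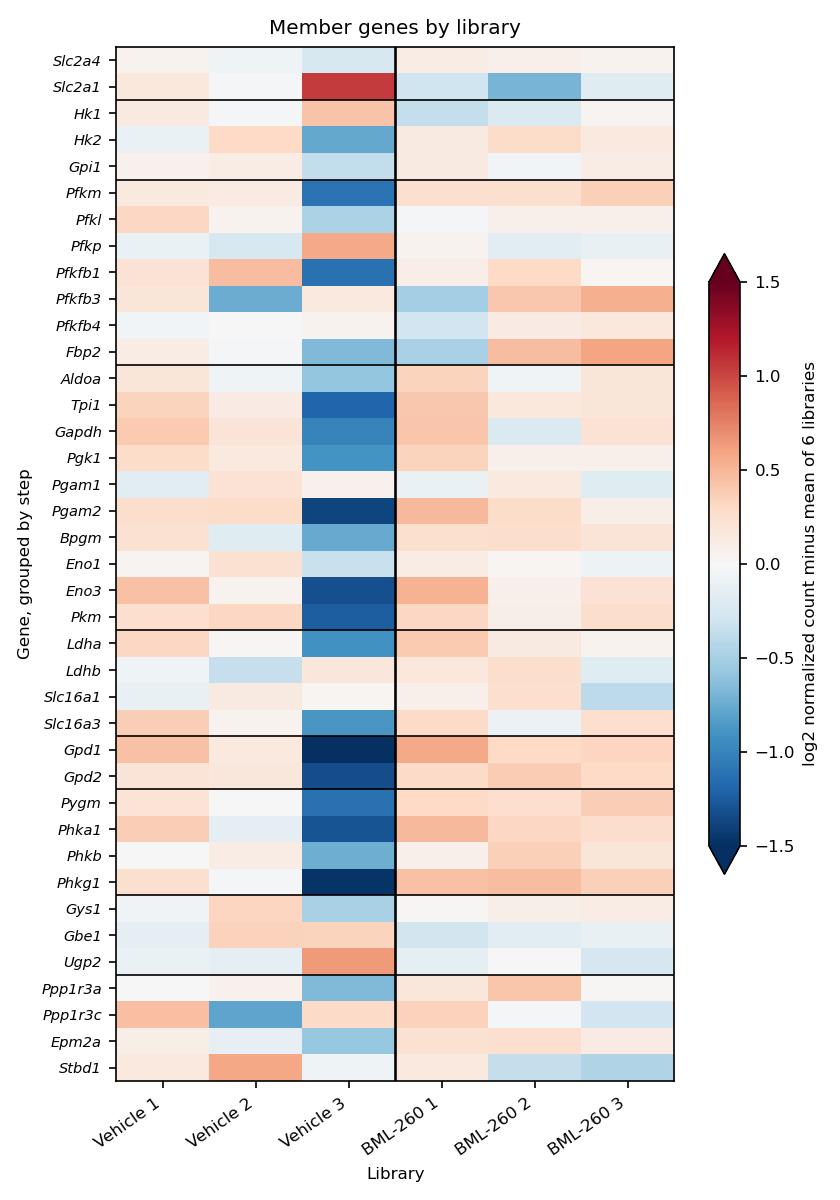
Log2 normalized count of each gene (rows, in blocks by step) in each library, minus the gene's mean over the 6 libraries, with red above and blue below the mean. The Vehicle 3 column is blue for most enzymes, and Vehicle 3 was the lowest library for 27 of the 39 genes. Its red cells include Slc2a1, Ugp2, Pfkp and Hk1, the 4 genes highest there, and others such as Gbe1, Ldhb and Ppp1r3c.

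Markers of fiber type and of other cells were also uneven in the same library, and their part in the results was not tested. Over all tested genes, 4.86% were called lower and 0.896% higher. The 12 fast fiber markers, such as the myosin Myh4, summed to 95312 TPM in Vehicle 3 and 107333 to 126724 in the other libraries. In normalized counts all 12 were lower in Vehicle 3 than the mean of Vehicle 1 and Vehicle 2. In TPM they were not uniform. Tnnt3 had 23582 TPM in Vehicle 3 against 19443 in Vehicle 1 and 17308 in Vehicle 2, while Pvalb had 2511 against 11885 and 8214. With BML-260, 11 of the 12 had a higher mean and none was called, with a median log2 fold change of 0.28 that was 0.094 without Vehicle 3. The 10 slow fiber markers summed to 1286 TPM in Vehicle 3 and 144 to 273 elsewhere. Their median log2 fold change was -1.16 with 3 called lower (Atp2a2, Tnni1 and Myoz2), and without Vehicle 3 it turned to 0.17 with 4 called higher and 1 lower (Atp2a2). Macrophage markers summed to 433 TPM in Vehicle 3, 103 and 101 in the other Vehicle libraries and 65.2 to 83.0 in BML-260 libraries, with 6 of 8 called lower and 5 of 8 without Vehicle 3. Neutrophil markers summed to 808 TPM in Vehicle 3, 166 in Vehicle 1, 24.2 in Vehicle 2 and 6.93 to 12.6 in BML-260 libraries, with 6 of 6 called lower and 5 of 6 without Vehicle 3. Both lists thus ran higher in every Vehicle library than in any BML-260 library. Erythroid markers reached 8752 TPM in Vehicle 3 against 1619 to 2162 elsewhere, with 4 of 6 called lower and 2 without Vehicle 3. Adipocyte markers reached 189 against 8.41 to 11.6, with 2 of 5 called lower and none without Vehicle 3. Schwann cell markers reached 101 against 21.5 to 32.3, with none of 5 called, or 2 called higher without Vehicle 3. Fibroblast markers (314 to 819.5 TPM, 1 of 6 called lower), endothelial markers (58.1 to 90.7 TPM, none of 6 called) and markers of myogenic progenitors and regeneration (132 to 216 TPM, 3 of 5 called lower) were less uneven between libraries. Vehicle 3 was the highest library in summed TPM for each of these lists as well, but not uniformly in normalized counts. There the median log2 difference of Vehicle 3 from the mean of Vehicle 1 and Vehicle 2 was 0.022 for fibroblast markers, with 3 of 6 lower. It was -0.13 for endothelial markers, with 3 of 6 lower, and -0.16 for progenitor and regeneration markers, with 3 of 5 lower. No defining fast marker was at 0, and the fast markers far exceeded the slow ones in every library.

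**Figure D5:**
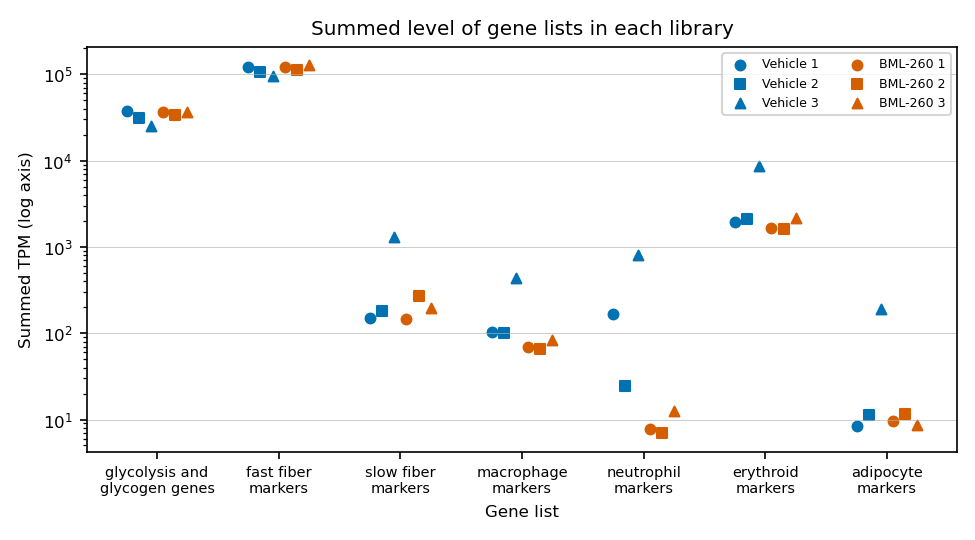
Summed TPM of the 39 genes and of 6 marker lists (columns) in each library on a log axis, with Vehicle in blue, BML-260 in orange and a marker shape for each replicate number. Vehicle 3 (blue triangle) was the lowest library for the 39 genes and for fast fiber markers and the highest for the other 5 lists.

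Of 74 further genes of glucose and glycogen handling, 66 were tested, 40 with a higher and 26 with a lower mean, with a median log2 fold change of 0.10. Of the 66, 3 were called, beside 5.75% of all tested genes. They were from different parts of the network, and each had an adjusted p of 0.788 by edgeR. Slc2a3, which encodes the glucose carrier GLUT3, had 551, 333 and 286 normalized counts in the Vehicle libraries and 558, 635 and 721 in the BML-260 libraries. It was higher in every BML-260 library, although Vehicle 1 came close, and its log2 fold change was 0.70 (SE 0.25), or 0.52 without Vehicle 3. Slc2a3 and Slc2a1, both minor transcripts, thus stood on opposite sides. Pgd, an enzyme of the pentose phosphate pathway, had 404, 456 and 621 normalized counts in the Vehicle libraries and 369, 267 and 385 in the BML-260 libraries. Its groups did not overlap, and its log2 fold change was -0.54 (SE 0.22), or -0.34 without Vehicle 3. Hif1a, the hypoxia-inducible factor that binds the core searched for above, had 1555, 2102 and 2245 normalized counts in the Vehicle libraries and 1351, 1679 and 1369.9 in the BML-260 libraries. Its groups overlapped, and its log2 fold change was -0.43 (SE 0.18), or -0.32 without Vehicle 3. Without Vehicle 3, Slc2a3 alone of the 66 was called, beside 3.98% of all genes. By list, the median was 0.41 for 7 genes of glucose uptake and its control, -0.095 for 8 further glycolysis isozymes, 0.14 for 14 genes of pyruvate entry to mitochondria, -0.012 for 20 further glycogen genes, -0.041 for 7 genes of the pentose phosphate pathway and 0.29 for 10 transcription factors.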

How the data were processed

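Total RNA of 6 TA muscles was made into stranded libraries with a ribosomal RNA removal kit. Per the submitters' processing notes, the tools were HISAT2 (2.1.0) and StringTie (2.1.3b), with Bowtie2 (2.3.4.1) and Trimmomatic (0.38), on mm10. How strand and reads that match several places were counted is not given in the sources used here. The authors deposited raw counts per gene, with 39522890 to 56998875 per library, and TPM per gene in each library. All 6 sample columns were used.

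Counts were tested in R 4.3.3 with edgeR 4.0.16 (TMM factors, filterByExpr, quasi-likelihood F-test) over 16188 genes, 3 Vehicle against 3 BML-260 libraries with no covariate, with Benjamini-Hochberg adjustment. Standard errors are the log2 fold change divided by the square root of F. Normalized counts used DESeq2 size factors. DESeq2 1.42.0, apeglm 1.24.0 and limma 3.58.1 (voom, and log2 TPM with a pseudocount of 1 or 0.1) served as alternatives, besides other scalings, filters and left-out libraries. Isozyme shares of TPM were compared with an exact permutation test over the 6 libraries. Scripts were tested on simulated data.

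The members and lists were chosen with earlier results of these data known. Per-library values were given for members called, those whose groups did not overlap, the 5 with the largest fold change, the 5 with the highest TPM and the isozyme pairs. Among the further lists, called genes were eligible for naming, at most 5 per list. Levels of different genes were compared in TPM. No set test was run. Leaving Vehicle 3 out of the marker lists and comparing its TPM with its normalized counts were added after seeing the data.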

Additional observations from a re-analysis of the deposited data

How the results depend on the processing

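The median log2 fold change of the 39 genes stayed above 0 in all 16 alternatives, between 0.00088 (apeglm) and 0.44 (without Vehicle 1). On log2 TPM the median of all genes was itself at -0.089 with a pseudocount of 1 and -0.14 with 0.1, so the members' medians of 0.14 and 0.15 are read against that shift. With 3 libraries a group, 1 library could decide a value. The cause of the changes below was not tested, except that leaving out a library means fewer samples.

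The count of all genes called, 931, was 1416 with no filter on low counts, 113 with apeglm and 446 on log2 TPM with a pseudocount of 1, and it ran from 503 to 2223 when 1 library was left out (503 without BML-260 2, 2223 without Vehicle 1). Genes with an adjusted p under 0.05, 0 by edgeR, numbered 1 with no filter, 1 with at least 10 counts in every library, 95 with DESeq2 and with apeglm, 1 with voom and 0 to 9 when 1 library was left out. Members called, 1 by edgeR, numbered 2 with upper quartile scaling (Slc2a1 and Gbe1), 0 with apeglm, 2 with voom (Slc2a1 and Stbd1), 1 on log2 TPM with either pseudocount (Stbd1 in place of Slc2a1) and 0 to 6 when 1 library was left out, 0 without BML-260 2 and 6 without Vehicle 1 (Slc2a1, Bpgm, Phka1, Phkg1, Gbe1 and Epm2a). Members with a lower mean, 9, numbered 7 to 16 when 1 library was left out, the 16 without Vehicle 3.

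Slc2a1 was lower in all 16 alternatives and called in 12. It was not called with apeglm (-0.0024), on log2 TPM (-0.78 and -0.92 with pseudocounts of 1 and 0.1) or without BML-260 2 (-0.72).

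When 1 library was left out, the log2 fold change ran from -0.063 to 0.52 for Pkm, -0.18 to 0.0014 for Pgam1, -0.15 to 0.23 for Pfkl and -0.35 to 0.091 for Pfkp, and the Ldhb difference from -2.49 to 0.836 percentage points. Of 352 values of the 22 members named by rule, 327 kept their direction and their side of the threshold, 4 lost the call, 6 gained one and 15 turned. Gapdh turned to -0.0050 with voom and -0.14 without Vehicle 3, and Pkm to -0.063 without Vehicle 3. Eno1 turned to -0.091 with voom, -0.11 on log2 TPM with either pseudocount, -0.12 without Vehicle 3 and -0.027 without BML-260 1. Pgam1 turned to 0.0014 without Vehicle 2. Pfkl turned to -0.072 with voom, -0.060 and -0.077 on log2 TPM with pseudocounts of 1 and 0.1, and -0.15 without Vehicle 3. Pfkp turned to 0.036 with voom and 0.091 without Vehicle 3. The Ldhb share, -1.37 percentage points, turned to 0.836 without Vehicle 3.

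Both groups carry replicate numbers 1 to 3, but deviations of same-numbered libraries correlated at only 0.114, 0.0501 and 0.0923, so the numbers were not taken to pair the samples, though every library correlated best with its own number. With a replicate block, 1057 genes were called and 3 members (Slc2a1, Phkg1 and Epm2a).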
